A study of Homo sapiens with 18 samples.

Results

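MUC5B, NES, FREM2, ART3, HR and DMRT2 are 6 genes, of 58870 in the count table, whose mRNA was higher in cells overexpressing MAFG than in cells overexpressing GFP in each of 3 human melanoma cell lines, WM164, SKMEL28 and A375. They were chosen by their measured response to MAFG: in each line the edgeR test of MAFG against GFP called them higher, with an adjusted p of at most 0.05 and a log2 fold change above 1. Of 13376 genes tested in all 3 lines, 9 (0.0673%) met these limits in every line, and the 6 genes are among these 9. The other 3 are CD74, COL9A3 and PMEPA1. No gene was called lower in all 3 lines, by edgeR, DESeq2 or limma on TPM, and 28 genes had a lower level at an unadjusted p under 0.05 in each line with edgeR. Only 3 genes were called lower in A375 cells by edgeR, so few could be called lower in all lines. Without limits, the log2 fold change was below 0 in all 3 lines for 1946 genes and above 0 for 1758. Since MAFG against GFP chose the 6 genes, their fold changes are given as descriptions, without a test. Levels in GFP cells were tested between lines, a contrast that was not part of the choice, although the same GFP libraries were its controls. Levels in MAFG cells are compared between lines as descriptions only.

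RNA was sequenced from 18 libraries, 3 for each line and each transgene. According to the methods, the transgenes were carried by a lentiviral vector with the constitutive EF1α promoter and blasticidin resistance, the MAFG reading frame had a Myc-DDK tag, and transduced cells were selected with blasticidin. Whether the cells were kept as a population or as clones is not given in the sources used here. All cells therefore carried a vector, and the GFP cells are the controls. Nothing in the labels says whether the 3 libraries of a group came from separate cultures, so p-values measure only the spread between these libraries, which may be technical. Library totals ranged from 20122172 to 39025042 counts. Levels are given as CPM, counts scaled to a common library size with TMM normalization over the 18 libraries. Levels of different genes are compared only in TPM, the authors' values scaled by transcript length as well as library size.

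MAFG is a small MAF protein, a basic leucine zipper factor that lacks an activation domain of its own and binds DNA as a dimer with itself or with partners such as the CNC and BACH proteins. Its classical binding sequence, the MAF recognition element, contains the core shared with AP-1 factors. The 6 genes come from unrelated families: a secreted mucin (MUC5B), an intermediate filament protein of neural and other progenitors (NES, nestin), an extracellular matrix protein of epithelial basement membranes (FREM2), a membrane-anchored member of the ADP-ribosyltransferase family (ART3), a nuclear receptor corepressor with a JmjC domain (HR, hairless) and a DM domain transcription factor of the early myotome (DMRT2).

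Promoter windows were available in the RefSeq table (build GRCh38.p14, 250 bases before to 50 after a start site) for 4 of the 6 genes, with 7 start sites in all: 1 for NES, 1 for FREM2, 2 for ART3 and 3 for DMRT2. MUC5B and HR were not matched. One window per gene is shown. For ART3 and DMRT2 it is the only window of the gene that held a match, and their other windows, which held none, are not shown. The windows printed are therefore not typical of the promoters of these genes. Capitals mark matches to the AP-1 core TGANTCA or the E-box CACGTG, searched on both strands. The ART3 window is that of the internal of its 2 start sites, and the DMRT2 window that of the middle of its 3.
NES promoter, chr1:156677358-156677657, minus strand: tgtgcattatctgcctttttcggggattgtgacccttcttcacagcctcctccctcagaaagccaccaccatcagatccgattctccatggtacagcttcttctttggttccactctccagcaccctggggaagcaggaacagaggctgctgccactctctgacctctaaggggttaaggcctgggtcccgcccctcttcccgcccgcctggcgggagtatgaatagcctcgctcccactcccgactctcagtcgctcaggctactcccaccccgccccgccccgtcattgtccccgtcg
FREM2 promoter, chr13:38686827-38687126, plus strand: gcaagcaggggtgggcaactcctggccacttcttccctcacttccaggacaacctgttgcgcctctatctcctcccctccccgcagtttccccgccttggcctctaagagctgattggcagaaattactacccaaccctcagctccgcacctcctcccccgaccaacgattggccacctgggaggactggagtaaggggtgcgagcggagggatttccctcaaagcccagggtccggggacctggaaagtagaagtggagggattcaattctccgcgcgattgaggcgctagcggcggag
ART3 promoter, chr4:76053866-76054165, plus strand: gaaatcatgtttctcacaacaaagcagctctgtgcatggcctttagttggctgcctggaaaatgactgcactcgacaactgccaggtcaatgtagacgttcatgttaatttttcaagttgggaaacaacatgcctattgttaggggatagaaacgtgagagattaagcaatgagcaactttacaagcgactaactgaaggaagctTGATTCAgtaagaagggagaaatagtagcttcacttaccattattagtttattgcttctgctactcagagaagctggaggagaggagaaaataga
DMRT2 promoter, chr9:1051237-1051536, plus strand: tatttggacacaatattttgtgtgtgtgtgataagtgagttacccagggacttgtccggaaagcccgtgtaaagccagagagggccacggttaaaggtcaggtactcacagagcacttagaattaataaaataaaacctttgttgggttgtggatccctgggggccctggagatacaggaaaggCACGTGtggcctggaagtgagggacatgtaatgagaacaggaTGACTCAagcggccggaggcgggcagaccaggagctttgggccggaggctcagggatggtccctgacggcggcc
The AP-1 core was found once in this ART3 window, beginning 45 bases before the start site, and once in this DMRT2 window, beginning 24 bases before the start site. The DMRT2 window also held an E-box at 66 bases before the start site. The other 5 windows, those of NES and FREM2 included, held neither motif. Among 35116 promoter windows of the table, 7.71% held the AP-1 core and 7.26% the E-box. The MAF-type motif TGCTGA (17.3% of all windows), the cAMP response element core TGACGTCA (1.85%) and the M-box TCATGTG (2.92%) were in none of the 7 windows.

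MAFG itself was higher with its transgene in every line. In WM164 cells, MAFG was at 25.6, 28.8 and 23.0 CPM with GFP and at 56.0, 55.4 and 47.8 CPM with MAFG, a log2 fold change of 1.04 (SE 0.09, adjusted p = 6.37e-08, edgeR). In SKMEL28 cells it was at 26.2, 26.03 and 20.1 CPM against 38.9, 35.8 and 37.3 CPM, a log2 fold change of 0.64 (SE 0.10, adjusted p = 1.28e-04, edgeR). In A375 cells it was at 23.7, 24.6 and 32.7 CPM against 56.3, 47.9 and 37.8 CPM, a log2 fold change of 0.80 (SE 0.17, adjusted p = 0.0655, edgeR), which missed the limit on p. The SKMEL28 and A375 values were both under the limit of 1 on log2 fold change, so MAFG was called higher in WM164 cells only. The groups did not overlap in any line. In TPM the same comparison gave larger ratios, 8.48-fold in WM164, 4.29-fold in SKMEL28 and 5.98-fold for A375.

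The lines differ in melanocytic genes. MITF, the melanocyte lineage factor, was at 28.6 CPM in A375 GFP cells, against 439 in WM164 and 648 in SKMEL28 GFP cells. MLANA and TYR, which mark pigmented melanocytes, had 0 counts in all 6 A375 libraries. The 7 melanocytic markers summed to 35.3 to 41.6 CPM in A375 GFP libraries and to 4695 to 5046 CPM in GFP libraries of the other lines. The 10 markers of other cell types (blood, endothelial, epithelial, liver and fibroblast genes) summed to at most 5.36 CPM in any library. CD3E and ALB were at 0 in every library. With MAFG the melanocytic markers summed to 2638 to 2767 CPM in WM164, 4161 to 4387 CPM in SKMEL28 and 120.0 to 172 CPM in A375 libraries, where SOX10 made up most of the sum with 114 CPM on average. Whether these shifts have a part in the members' responses was not tested. In bulk RNA a change in the number of cells that express a gene and a change in RNA per cell cannot be told apart.

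The 6 genes responded with different sizes, and the order of the fitted values differed between lines, though many neighbours in it were within 2 SE. The DM domain factor DMRT2 rose the most in WM164 cells, by 3.27 (SE 0.18) on the log2 scale. The mucin MUC5B rose the most in SKMEL28 cells, with 3.84 (SE 0.29). The ADP-ribosyltransferase family gene ART3 rose the most in A375 cells, where it went from 0 counts in every GFP library to at least 14.0-fold more. The corepressor HR had the narrowest range of sizes, from 1.09 in SKMEL28 to 1.27 in A375 cells. For every gene and line, each MAFG library had more CPM than each GFP library. This held for 22.6% of genes tested in WM164, 21.1% in SKMEL28, 7.33% in A375 and 1.0% in all 3 lines together. Genes called higher made up 4.94% of 15919 tested in WM164, 1.76% of 15523 in SKMEL28 and 0.646% of 15779 for A375.

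**Figure D1:**
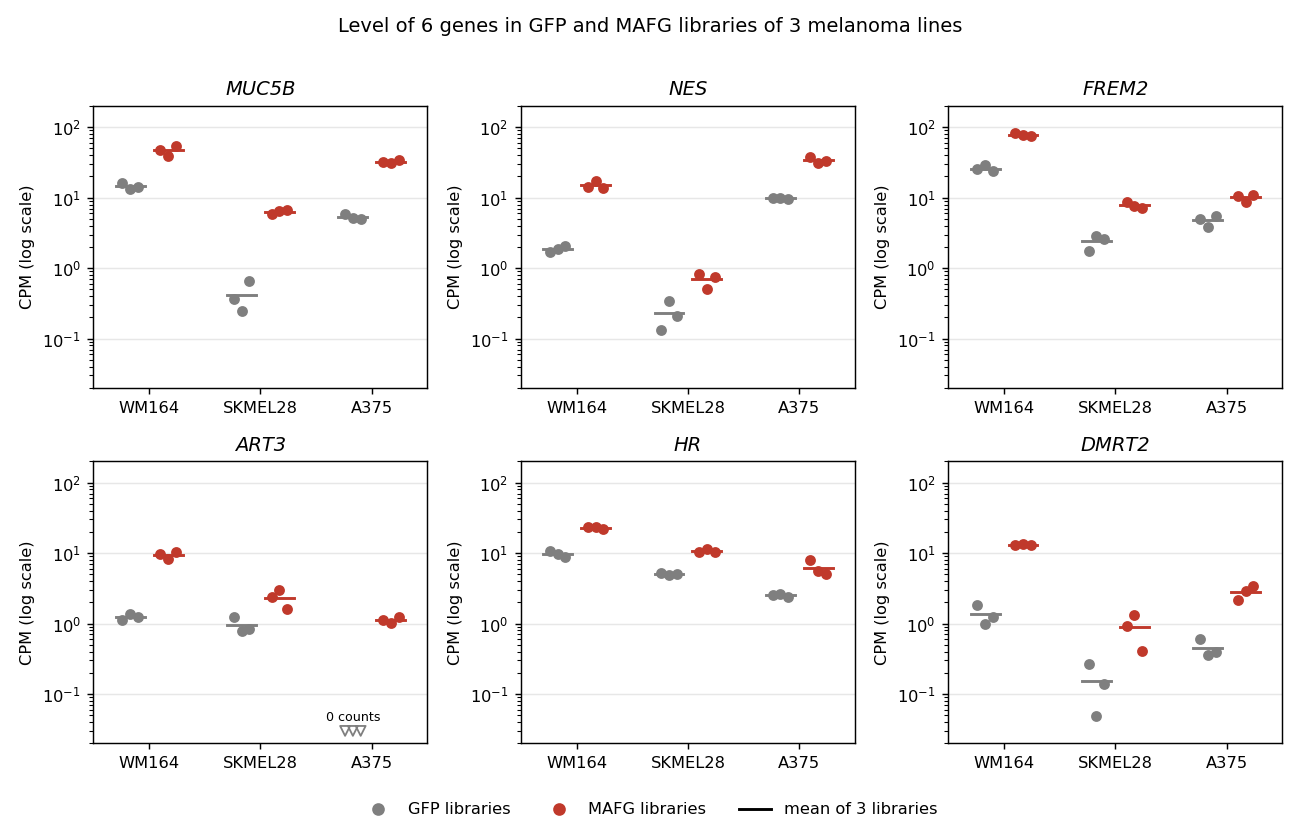
Level of each of the 6 genes in CPM (log axis) in the 3 GFP (grey) and 3 MAFG (red) libraries of each line, with the mean of each group as a bar. Every MAFG library lies above every GFP library of its line, from 1.61 against 1.23 CPM where they come closest for ART3 in SKMEL28 cells, and ART3 has 0 counts in the 3 A375 GFP libraries, drawn as open triangles at the foot of its panel.

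MUC5B encodes a gel-forming mucin, a very large secreted glycoprotein of airway and gland mucus. It lies on chromosome 11 from 1223066 to 1262172 (plus strand, GENCODE release 44 on GRCh38), and its canonical transcript has 49 exons and 17911 bases. In WM164 cells it was at 16.1, 13.4 and 14.4 CPM with GFP and at 48.1, 39.1 and 54.4 CPM with MAFG, a 3.22-fold increase (log2 fold change 1.69, SE 0.11). In SKMEL28 GFP cells it was close to absent, at 0.366, 0.246 and 0.656 CPM, from 11, 5 and 19 counts. With MAFG it reached 5.84, 6.49 and 6.61 CPM there, 14.9-fold more (log2 fold change 3.84, SE 0.29). A375 cells went from 5.94, 5.14 and 4.91 to 32.5, 31.2 and 34.0 CPM, 6.11-fold (log2 fold change 2.61, SE 0.13). The order of the fold changes in CPM, SKMEL28 over A375 over WM164, was thus the reverse of the order of the GFP levels, WM164 over A375 over SKMEL28. The responses differed by -2.14 (SE 0.28) between WM164 and SKMEL28, -0.92 (SE 0.20) between WM164 and A375, and 1.22 (SE 0.29) between SKMEL28 and A375 cells on the log2 scale. On the authors' TPM the ratios kept this order, at 7.0, 5.52 and 4.40, but on log2(TPM + 1), which compresses low values, WM164 exceeded SKMEL28 by 0.75 and A375 by 0.13. In CPM gained, the order was again that of the GFP levels, with 32.6 in WM164, 27.2 in A375 and 5.89 in SKMEL28 cells. In no line did GFP and MAFG libraries overlap, and the SKMEL28 MAFG libraries reached the level of A375 GFP libraries.

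The level of MUC5B in GFP cells was tested between lines. WM164 exceeded SKMEL28 by 5.05 (SE 0.21, adjusted p = 4.05e-14) on the log2 scale and A375 by 1.46 (SE 0.15, adjusted p = 1.52e-08) in edgeR's quasi-likelihood test. SKMEL28 was lower than A375, with a difference of -3.59 (SE 0.22, adjusted p = 8.47e-12) in the same edgeR test. In MAFG cells the gap between WM164 and A375 was 0.54 (SE 0.13) on the log2 scale, and that between WM164 and SKMEL28 was 2.90 (SE 0.15). The lines kept their order and stood closer together than with GFP.

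FREM2 encodes a large membrane-tethered matrix protein that forms a complex with FRAS1 and FREM1 at epithelial basement membranes. It spans 200055 bases of chromosome 13, from 38687077 to 38887131 (plus strand), with 24 exons and a canonical transcript of 16122 bases. WM164 cells had the highest CPM, 25.3, 28.8 and 23.5 with GFP and 81.5, 76.5 and 74.1 with MAFG (2.99-fold, log2 fold change 1.58, SE 0.08). SKMEL28 cells rose from 1.77, 2.85 and 2.55 to 8.61, 7.71 and 7.17 CPM (3.27-fold, log2 fold change 1.73, SE 0.20). In A375 cells the groups lay closer, at 4.95, 3.86 and 5.50 against 10.6, 8.69 and 10.9 CPM (2.11-fold, log2 fold change 1.07, SE 0.19), just above the limit of selection. The responses of WM164 and SKMEL28 differed by -0.15 (SE 0.21). A375 responded less than WM164, by 0.50 (SE 0.20), and less than SKMEL28, by 0.65 (SE 0.23). On the authors' TPM the A375 groups overlapped, at 0.60, 0.19 and 0.23 with GFP and 0.40, 0.71 and 0.50 with MAFG, so the A375 increase holds for counts but not for every library in TPM.

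In GFP cells FREM2 was higher in WM164 than in SKMEL28 by 3.46 (SE 0.17, adjusted p = 2.92e-13) and than in A375 by 2.44 (SE 0.15, adjusted p = 4.42e-12), by edgeR. SKMEL28 and A375 GFP cells differed by -1.02 (SE 0.17, adjusted p = 2.55e-05), by edgeR, at the limit of 1. In MAFG cells that difference was -0.36 (SE 0.14), and WM164 was above SKMEL28 by 3.30 (SE 0.15).

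NES encodes nestin, an intermediate filament protein of neural progenitors that is also found in melanoma cells. It lies on chromosome 1 from 156668763 to 156677407 (minus strand, 4 exons, 5568 bases). In A375 cells, where it was highest, NES was at 10.04, 9.97 and 9.43 CPM with GFP and at 38.2, 30.7 and 33.2 CPM with MAFG (3.47-fold, log2 fold change 1.79, SE 0.12). WM164 cells went from 1.68, 1.86 and 2.05 to 14.1, 17.2 and 13.8 CPM (8.06-fold, log2 fold change 3.01, SE 0.15). The WM164 MAFG libraries thus stood above the A375 GFP libraries. In SKMEL28 cells NES was near the limit of detection, at 4, 7 and 6 counts with GFP and 25, 14 and 20 with MAFG, which is 0.133, 0.344 and 0.207 against 0.834, 0.502 and 0.751 CPM (3.05-fold, log2 fold change 1.64, SE 0.59). The response of WM164 exceeded that of SKMEL28 by 1.33 (SE 0.42) and that of A375 by 1.22 (SE 0.22) on the log2 scale. SKMEL28 and A375 differed by -0.12 (SE 0.45).

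NES differed between lines in GFP cells, with A375 highest. Its log2 level in WM164 minus A375 was -2.40 (SE 0.17, adjusted p = 5.29e-11) and in SKMEL28 minus A375 -5.48 (SE 0.24, adjusted p = 1.86e-14), both by edgeR. MAFG cells kept this order, at -1.18 (SE 0.14) for WM164 minus A375 and -5.60 (SE 0.19) for SKMEL28 minus A375. Alone among the 6 genes, NES was higher in A375 than in WM164 cells.

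ART3 belongs to the family of membrane-anchored mono-ADP-ribosyltransferases, although the protein lacks the catalytic motif of its active relatives. The gene lies on chromosome 4 from 76011184 to 76114048 (plus strand, 12 exons, canonical transcript of 1557 bases). In WM164 cells ART3 was at 1.14, 1.36 and 1.22 CPM with GFP and at 9.83, 8.17 and 10.5 CPM with MAFG (7.64-fold, log2 fold change 2.93, SE 0.18). In SKMEL28 cells it was at 1.23, 0.787 and 0.828 against 2.40, 3.01 and 1.61 CPM (2.47-fold, log2 fold change 1.29, SE 0.35), and the highest GFP library came close to the lowest MAFG library. The 3 A375 GFP libraries had 0 counts each, while the MAFG libraries had 45, 38 and 54 counts, or 1.14, 1.01 and 1.26 CPM. Against a floor of 3 counts in each GFP library, this is at least 14.0-fold higher (log2 of at least 3.80). The A375 MAFG level was close to that of WM164 GFP cells, 1.13 against 1.24 CPM on average. The WM164 response exceeded the SKMEL28 response by 1.64 (SE 0.40) on the log2 scale.

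In all, 4 annotated genes overlap ART3 on the opposite strand, the chemokine genes CXCL10 and CXCL11, the nuclear pore gene NUP54 and a pseudogene. The chemokine genes had at most 5 counts in any library of these lines, and the pseudogene had none. NUP54 was at 18.04 to 24.6 CPM on average in every group, A375 GFP cells included, and it was called in no line. In A375 GFP cells NUP54 was at 18.7 CPM and ART3 at 0 counts. The sources differ on whether the libraries kept strand, and whether NUP54 reads have a part in the ART3 values was not tested. SOX10, a neural crest and melanocyte factor, moved with ART3 in A375 cells, from 6.93, 8.15 and 11.5 CPM to 142, 102 and 97.9 CPM (log2 fold change 3.68, SE 0.21, adjusted p = 2.12e-05, edgeR). MITF was at 29.0, 27.1 and 29.7 CPM with GFP and at 29.4, 32.3 and 20.4 CPM with MAFG there, and the groups overlapped (log2 fold change -0.07, SE 0.16, adjusted p = 0.997, edgeR). MLANA and TYR stayed at 0 counts in them, against 62.8 and 48.2 CPM in WM164 MAFG cells, where ART3 was at 9.49 CPM on average. In WM164 and SKMEL28 cells, where ART3 was also higher with MAFG, the SOX10 groups overlapped (log2 fold changes -0.04, SE 0.05, and 0.03, SE 0.06). S100B, another melanocytic marker, was at 0.0709 CPM with GFP and 0.850 CPM with MAFG on average in A375 cells (adjusted p = 0.0998, edgeR). Whether SOX10 has a part in the ART3 increase was not tested.

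Between lines, ART3 is the gene whose GFP levels in CPM were most alike in WM164 and SKMEL28 cells. They differed by 0.38 (SE 0.30, adjusted p = 0.309), by edgeR, and their libraries overlapped in CPM. In TPM these GFP libraries did not overlap, at 1.45, 1.89 and 0.93 in WM164 against 0.73, 0.80 and 0.58 in SKMEL28 cells. Against A375 GFP cells, ART3 was at least 15.3-fold higher in WM164 and at least 11.7-fold higher in SKMEL28 cells (adjusted p = 1.74e-09 and 6.65e-09, edgeR). With MAFG, WM164 exceeded SKMEL28 by 2.02 (SE 0.27) and SKMEL28 exceeded A375 by 1.04 (SE 0.28) on the log2 scale.

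HR encodes hairless, a corepressor of the vitamin D, thyroid hormone and ROR receptors with a histone demethylase type JmjC domain, known for its role in the hair cycle. It lies on chromosome 8 from 22114419 to 22133384 (minus strand, 19 exons, 5474 bases), and the only overlapping annotated gene, HRURF on the same strand, was not analysed here. In WM164 cells HR was at 10.8, 9.79 and 8.69 CPM with GFP and at 23.5, 23.7 and 21.6 CPM with MAFG (2.35-fold, log2 fold change 1.23, SE 0.10). SKMEL28 cells had 5.30, 4.92 and 5.07 against 10.5, 11.6 and 10.5 CPM (2.13-fold, log2 fold change 1.09, SE 0.14). A375 cells had 2.53, 2.66 and 2.40 against 7.89, 5.54 and 5.05 CPM (2.43-fold, log2 fold change 1.27, SE 0.23), with 1 MAFG library higher than the other two. HR gave the smallest response in WM164 and in SKMEL28 cells, and responses of the lines differed by at most 0.19 (SE 0.22) on the log2 scale. In TPM the A375 groups touched, at 1.04, 0.42 and 0.40 against 1.04, 1.71 and 1.49.

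The GFP levels of HR were highest in WM164, then SKMEL28, then A375 cells, with log2 differences of 0.93 (SE 0.15, adjusted p = 2.33e-05) and 1.01 (SE 0.16, adjusted p = 1.29e-05) between neighbours in that order, by edgeR. The first of these is under the limit of 1 on fold change. MAFG cells showed the same order and nearly the same gaps, 1.08 (SE 0.14) and 0.82 (SE 0.15).

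DMRT2 encodes a zinc finger factor of the DM domain family that acts in early somites and the dermomyotome. It lies on chromosome 9 from 1049858 to 1057552 (plus strand, 4 exons, 2428 bases). In WM164 cells it was at 1.86, 0.995 and 1.22 CPM with GFP and at 12.9, 13.3 and 13.1 CPM with MAFG, 9.66-fold more (log2 fold change 3.27, SE 0.18). A375 cells rose from 0.60, 0.353 and 0.391 to 2.17, 2.91 and 3.40 CPM (6.32-fold, log2 fold change 2.65, SE 0.39). SKMEL28 cells had 8, 1 and 4 counts with GFP and 28, 37 and 11 with MAFG, or 0.266, 0.0492 and 0.138 against 0.934, 1.33 and 0.413 CPM (5.89-fold, log2 fold change 2.45, SE 0.67), and the third MAFG library was the lowest. Differences of the response between lines were 0.83 (SE 0.67) for WM164 minus SKMEL28, 0.62 (SE 0.50) for WM164 minus A375 and -0.21 (SE 0.72) for SKMEL28 minus A375. DMRT2 had the largest smallest response: its lowest log2 fold change over the 3 lines, 2.45, ranked 1st among the 13376 genes tested in all lines, ahead of MUC5B (1.69) and NES (1.64). This rank is a description, since the same fold changes chose the genes, and the 2.45 has an SE of 0.67. RAPGEF4, NTRK2, GPC4 and PROX1, which are not members, held ranks 4 to 7, above ART3, HR and FREM2.

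In GFP cells DMRT2 was higher in WM164 than in SKMEL28 cells by 3.04 (SE 0.48, adjusted p = 1.38e-05) and than in A375 cells by 1.59 (SE 0.38, adjusted p = 9.95e-04), by edgeR. SKMEL28 was lower than A375, with a difference of -1.45 (SE 0.53, adjusted p = 0.0190) by edgeR. MAFG cells gave 3.87 (SE 0.36), 2.21 (SE 0.32) and -1.66 (SE 0.35) for the same 3 pairs.

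**Figure D2:**
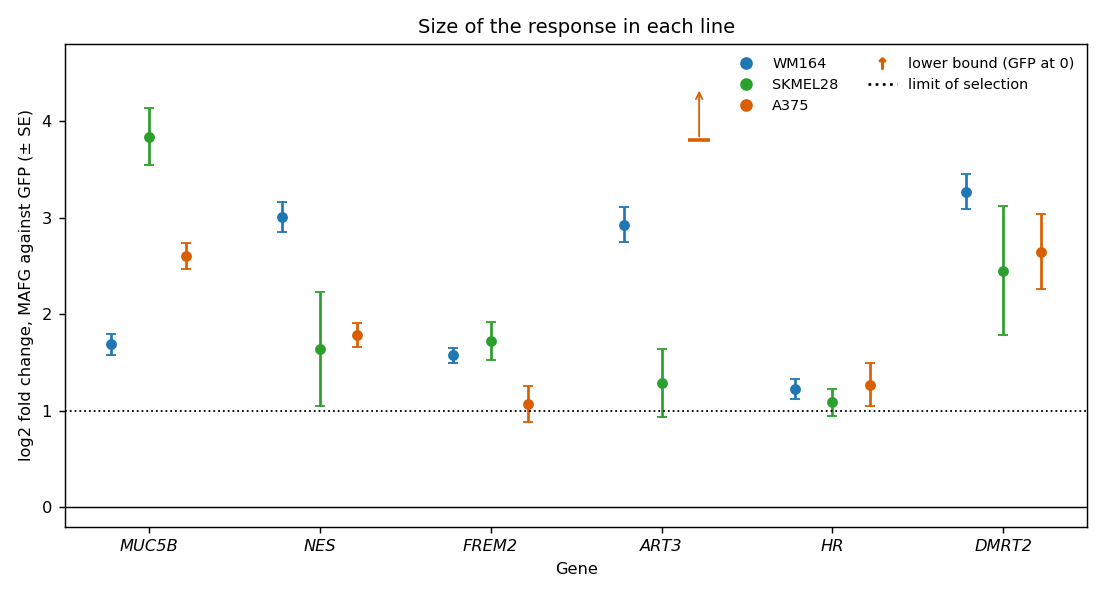
Log2 fold change of MAFG against GFP and its standard error from edgeR for each gene in WM164 (blue), SKMEL28 (green) and A375 cells (orange). The dotted line is the limit of 1 by which the genes were chosen, and the arrow is the lower bound for ART3 in A375 cells, 3.80. HR lies at 1.09 to 1.27 in all lines, while MUC5B spans 1.69 to 3.84.

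Within a line, few neighbours in the order of the responses were apart by more than 2 SE. In WM164 cells, DMRT2, NES and ART3 formed an upper group (3.27, 3.01 and 2.93 on the log2 scale), 1.24 (SE 0.21) above MUC5B. MUC5B and FREM2 followed at 1.69 and 1.58, and HR was 0.35 (SE 0.13) below FREM2. In SKMEL28 cells no 2 neighbours differed by more than 2 SE, in the order MUC5B, DMRT2, FREM2, NES, ART3 and HR. In A375 cells, after ART3, DMRT2 and MUC5B were alike at 2.65 and 2.61. NES was 0.82 (SE 0.18) below MUC5B, HR was 0.52 (SE 0.26) below NES, and HR and FREM2 were within 2 SE. By fitted value a different gene came first in each line. In WM164 cells, however, DMRT2 was only 0.26 (SE 0.24) above NES. In SKMEL28 cells MUC5B was 1.39 (SE 0.73) above DMRT2, so the first place was not set apart in these lines.

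Per transcript length, the 6 genes were lowly expressed. HR had the highest TPM of the 6 in WM164 and SKMEL28 GFP cells, 1.65 ± 0.488 and 0.910 ± 0.123 (SD, n = 3), and NES in A375 GFP cells, 1.41 ± 0.217. With MAFG, ART3 led in WM164 cells at 7.47 ± 1.34 TPM, ahead of DMRT2 at 5.19 ± 0.398 and HR at 3.99 ± 0.980. FREM2, first in CPM in WM164 MAFG cells at 77.4, was at 2.99 ± 0.217 TPM there. HR still led in SKMEL28 MAFG cells at 1.90 ± 0.344 TPM and NES in A375 MAFG cells at 4.47 ± 0.165 TPM. The gain in TPM was largest for ART3 and DMRT2 in WM164 cells, 6.04 and 4.77, and smallest for NES in SKMEL28 cells, 0.0567. In TPM each MAFG library exceeded each GFP library in 16 of the 18 pairs of gene and line. The exceptions were FREM2 and HR in A375 cells, which overlapped or tied. This count is a description, since the same libraries chose the genes. The share over all genes is given above in CPM only, not in TPM.

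Considered as a set, the lines kept their order from GFP to MAFG cells for each of the 6 genes. WM164 was first for 5 genes in both conditions, and A375 was first for NES. SKMEL28 was last for MUC5B, NES, FREM2 and DMRT2, and A375 was last for ART3 and HR. In GFP cells, 16 of 18 comparisons of a gene between 2 lines were called (adjusted p of at most 0.05 and over 1 on the log2 scale, edgeR), beside 28.7% (WM164 against SKMEL28), 46.7% (WM164 against A375) and 43.8% (SKMEL28 against A375) of all 18767 genes tested. These GFP libraries were also the controls of the contrast that chose the genes.

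**Figure D3:**
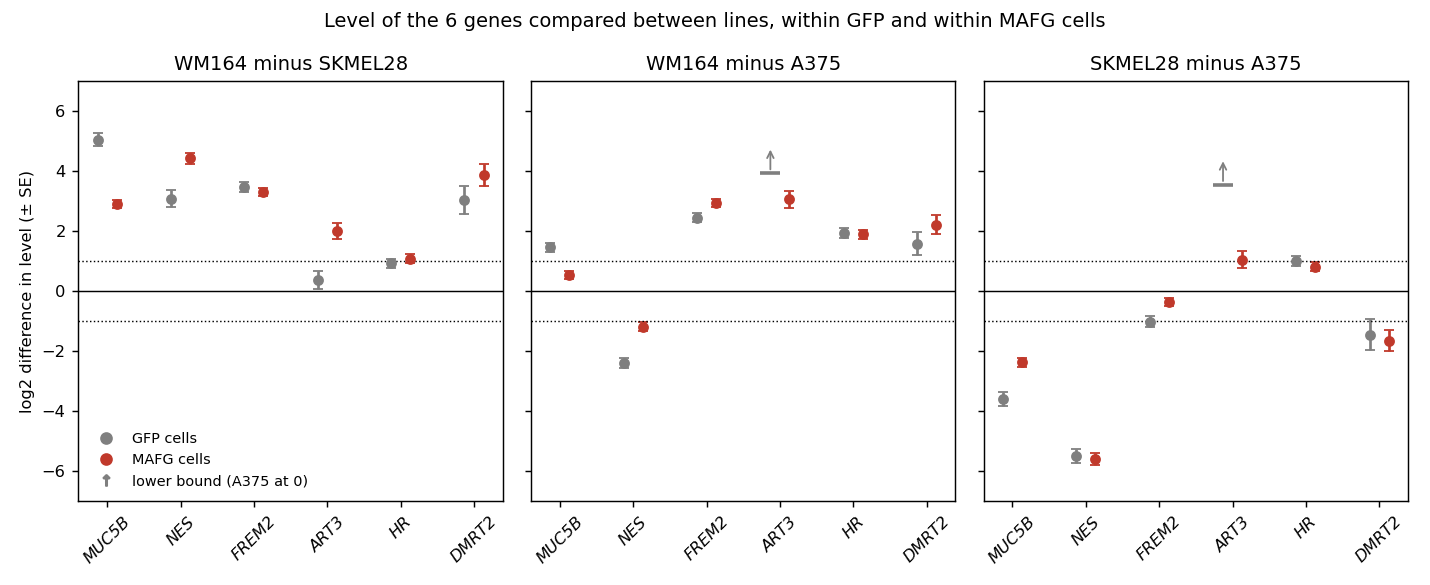
Difference in level between lines on the log2 scale and its standard error from edgeR for each gene, in GFP cells (grey) and in MAFG cells (red), one panel per pair of lines. Dotted lines mark 1 and -1, and arrows are lower bounds for ART3, with A375 GFP cells at 0. For each gene both conditions lie on the same side of 0, and among values that are not bounds MUC5B moves most between them, from 5.05 to 2.90 in WM164 minus SKMEL28.

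The smallest log2 fold changes inside were 1.07 (FREM2 in A375), 1.09 (HR in SKMEL28) and, among the 3 genes that are not members, 1.05 (PMEPA1 in SKMEL28) and 1.09 (COL9A3 in WM164). A further 79 genes were called higher in 2 of the 3 lines, and for 55 of them A375 was the line without a call. Just outside on fold were SAA1 (0.93, SE 0.80) and NTM (0.87, SE 0.18) in A375 cells. On p alone, GPC4 (2.17, SE 0.92), RAPGEF4 (1.56, SE 1.22), NTRK2 (1.51, SE 0.89) and PROX1 (1.31, SE 0.92) missed in A375 cells and THBS2 (1.03, SE 0.50) in WM164 cells. CD74, the invariant chain of MHC class II, had log2 fold changes of 1.36 (SE 0.24) in WM164, 1.21 (SE 0.07) in SKMEL28 and 2.91 (SE 0.14) for A375. For COL9A3, a cartilage collagen chain, they were 1.09 (SE 0.06), 1.51 (SE 0.38) and 1.88 (SE 0.30), and for PMEPA1, a TGF-beta target, 1.43 (SE 0.11), 1.05 (SE 0.16) and 3.51 (SE 0.23), in the same order of lines.

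**Figure D4:**
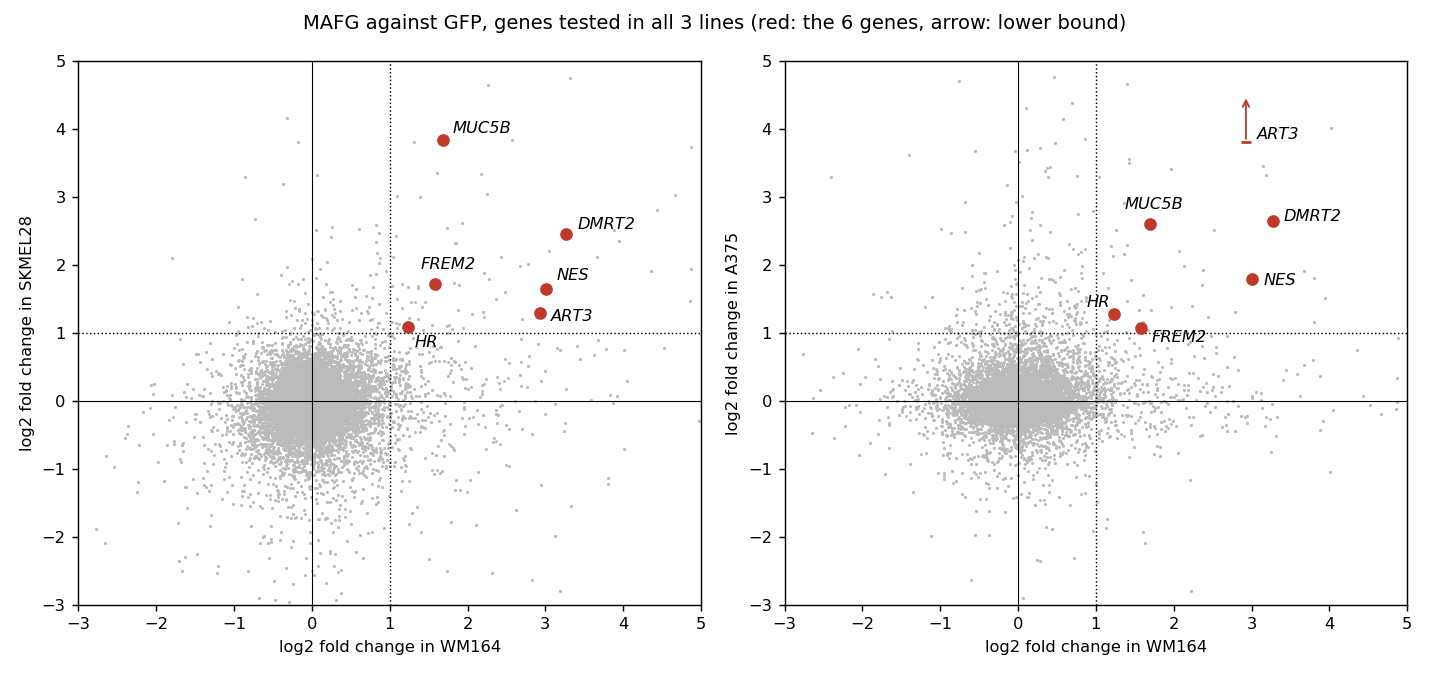
Log2 fold change of MAFG against GFP in WM164 cells (horizontal) against SKMEL28 (left) or A375 cells (right) for 13376 genes tested in all 3 lines (grey), with the 6 genes in red and the limit of 1 dotted. The 6 genes lie at or beyond 1.07 on both axes, ART3 is drawn at its lower bound of 3.80 in A375 cells, and 37 and 36 genes fall outside the axes of the left and right panel.

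The responses of genes related to the members by family or pathway were counted in the same fits. Of 76 related genes in 7 lists, 32 were tested in WM164, 36 in SKMEL28 and 38 for A375. In WM164 cells 3 were called higher and none lower, beside 4.94% and 2.0% of all genes. In SKMEL28 cells 2 were called higher and 3 lower, beside 1.76% and 2.98%. In A375 cells none was called in either direction, beside 0.646% and 0.0190%, and none had an adjusted p of at most 0.05 without the limit on fold with edgeR, while 3 had an unadjusted p under 0.05. DESeq2 called 1 related gene in A375 cells, FREM1, and limma on TPM none. No related gene was called in more than 1 line.

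MUC5AC, the other gel-forming mucin of the airway and the neighbour of MUC5B, rose in SKMEL28 cells, from 0.167, 0.295 and 0 to 2.87, 2.19 and 3.42 CPM (log2 fold change 4.27, SE 0.58, adjusted p = 3.79e-05, edgeR). In A375 cells it went from 0.808, 0.706 and 0.586 to 0.278, 0.291 and 0.582 CPM, with adjusted p = 0.997 by edgeR, and in WM164 cells it had at most 7 counts in a library. MUC5B and MUC5AC were thus both higher in the SKMEL28 MAFG libraries. Of the 10 gel-forming mucin and goblet cell genes, 1 was tested in WM164, 3 in SKMEL28 and 2 for A375, and the 10 membrane mucins had no call in any line.

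Among 14 intermediate filament genes, SYNM (synemin, which can assemble with vimentin-type filaments) rose in WM164 cells from 34.2, 33.8 and 33.8 to 96.2, 94.0 and 96.8 CPM (log2 fold change 1.5, SE 0.06, adjusted p = 2.67e-12, edgeR). NEFL, the light neurofilament chain, fell in SKMEL28 cells from 12.5, 11.1 and 11.8 to 3.74, 3.30 and 3.27 CPM (log2 fold change -1.78, SE 0.15, adjusted p = 2.80e-07, edgeR). The median log2 fold change of the tested filament genes was 0.03 in A375, 0.11 in SKMEL28 and 0.12 in WM164 cells, beside -0.00037, -0.0080 and -0.0015 over all genes tested there.

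FREM1, the partner of FREM2 in the basement membrane complex, was named after its values were seen, for its call by DESeq2. In WM164 cells it was at 25.3, 31.5 and 26.7 CPM with GFP and at 53.1, 52.3 and 46.0 CPM with MAFG (log2 fold change 0.85, SE 0.09, adjusted p = 6.39e-07, edgeR), under the limit on fold. In A375 cells it had 9, 0 and 0 counts against 35, 53 and 55, with adjusted p = 0.230 by edgeR and 0.00277 by DESeq2. In SKMEL28 cells the groups overlapped, at 7, 3 and 18 counts against 27, 29 and 9 (adjusted p = 0.195, edgeR). Each FREM1 MAFG library was above each GFP library in WM164 and in A375 cells. This held for 22.6% of all genes tested in WM164 and 7.33% in A375 cells, and for FREM2, which was chosen by its response. FREM1 was called by edgeR in no line.

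Of the 8 other genes of the FRAS1/FREM complex, GRIP2, an adaptor of the family that carries this complex to the membrane, was higher in WM164 MAFG cells, at 0.500, 0.697 and 0.316 against 2.80, 2.74 and 3.52 CPM (log2 fold change 2.56, SE 0.35, adjusted p = 1.54e-05, edgeR). For mono-ADP-ribosylation, MACROD2, a hydrolase that removes ADP-ribose from proteins, rose in WM164 cells from 2.5, 2.16 and 2.45 to 5.98, 7.10 and 6.09 CPM (log2 fold change 1.43, SE 0.18, adjusted p = 7.18e-06, edgeR). Among 16 partners and JmjC relatives of HR, the orphan nuclear receptors RORA and RORB moved in opposite directions in SKMEL28 cells. RORA fell from 8.83, 9.50 and 9.59 to 3.74, 3.69 and 2.85 CPM (log2 fold change -1.44, SE 0.16, adjusted p = 7.87e-06, edgeR). RORB rose from 3.20, 3.74 and 4.59 to 15.2, 14.2 and 12.1 CPM (log2 fold change 1.85, SE 0.16, adjusted p = 4.80e-07, edgeR). Among 11 DM domain and early myotome factors, DMRTA1 fell in SKMEL28 cells from 6.33, 8.32 and 6.52 to 2.7, 4.30 and 3.15 CPM (log2 fold change -1.05, SE 0.20, adjusted p = 8.98e-04, edgeR), while DMRT2 was higher with MAFG there.

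The nearest tested gene on each side of each member, and every overlapping gene, were examined. MUC5AC, 21928 bases from MUC5B, was called in SKMEL28 cells as described. TOLLIP, 12199 bases away on the other side, was called in no line. AL590666.2, a long non-coding RNA gene on the same strand 7339 bases from NES, rose in WM164 cells from 0.497 to 1.42 CPM on average (log2 fold change 1.5, SE 0.43, adjusted p = 0.0120, edgeR). In A375 cells it was at 21.0 and 20.8 CPM on average with GFP and MAFG (adjusted p = 0.997, edgeR). CRABP2 beside NES, UFM1 and PROSER1 beside FREM2, SDAD1 and SCARB2 beside ART3, NUDT18 and REEP4 beside HR, and KANK1 and SMARCA2 beside DMRT2 were called in no line where they were tested. The antisense genes MUC5B-AS1 and FREM2-AS1, which overlap MUC5B and FREM2, had at most 4 counts in a library and 0, respectively. The small RNA genes MIR6744 and RNU6-56P within them were at 0.

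Across the 18 libraries the genes most like each member in log2 CPM were sought among 14227 protein-coding genes, by Pearson's r as a description. The libraries share lines and transgenes. A high r can therefore rest on levels that differ between lines, and it does not measure a shared response to MAFG. For MUC5B they were MMP2 (0.98), AFAP1L2 (0.95) and ELMO1 (0.92). For NES they were F2R (0.98), HEG1 (0.97) and ANTXR2 (0.96). For FREM2 they were MRPS6 (0.98), APLP2 (0.97) and TRABD2B (0.97). For ART3 they were PMEPA1 (0.95), HR (0.94) and SLC35F1 (0.93), another member among them, and PMEPA1 is also one of the 9 genes called in all lines. For HR they were PIP5K1B (0.96), TBC1D8 (0.95) and PLEKHS1 (0.95). For DMRT2 they were KIAA0040 (0.93), TSPAN13 (0.92) and ZSWIM6 (0.91). Between members, r ranged from -0.05 for NES with ART3 to 0.94 for ART3 with HR. MUC5B with DMRT2 reached 0.90 and FREM2 with DMRT2 0.89.

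In transcript length MUC5B and FREM2 stood at the 99.6 and 99.5 percentile of 13325 annotated genes tested in all lines, whose median is 3103 bases, and ART3 at the 20.1 percentile. Exon numbers run from 4 in NES and DMRT2 to 49 in MUC5B, against a median of 8. The GC content of the canonical transcript was 40.3% for ART3, 44.6% for FREM2, 55.2% for DMRT2, 59.3% for NES, 64.5% for MUC5B and 65.0% for HR, on both sides of the median of 48.0%. All 6 lie on different chromosomes.

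Several values lie close to the limits of selection. MUC5B was called in all 3 lines whichever of the 18 libraries was left out. ART3 was called in 15, HR in 14, FREM2 and DMRT2 in 13 and NES in 12 of the 18 settings. NES lost its call in SKMEL28 cells without any 1 of their 6 libraries, and with DESeq2. In A375 cells FREM2 lost its call without any 1 GFP library or without MAFG replicate 2 or 3, HR without any 1 GFP library or MAFG replicate 2, DMRT2 without GFP replicate 2 or 3 or MAFG replicate 2 or 3, and ART3 without MAFG replicate 2 or 3. In SKMEL28 cells ART3 and DMRT2 lost theirs without MAFG replicate 2. Each member's fold change stayed above 0 in all of them, and the lowest values were 0.93 for FREM2 in A375 and 1.04 for HR in SKMEL28 cells on the log2 scale.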

How the data were processed

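The members and the gene lists were chosen with earlier results of these data known. RNA-seq counts per gene were deposited by the authors as a table of raw counts (unique read pairs assigned to genes by featureCounts, per the methods), and the authors' TPM values stand beside them. The submitters' processing notes name cutadapt 1.8.1, STAR 2.7.7a, RSEM 1.3.0, DESeq2 and GRCh38. The methods name RSEM for TPM beside another dataset, and which tool made the TPM values used here is not stated. The labels and the methods name different library kits, and whether counting used strand is therefore uncertain.

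Counts of each line (6 libraries) were filtered with filterByExpr, scaled by TMM and tested with edgeR 4.0.16 (quasi-likelihood, R 4.3.3), with Benjamini-Hochberg adjustment over all genes tested. A gene was called at an adjusted p of at most 0.05 with a log2 fold change beyond 1 in either direction. The standard error is the log2 fold change divided by the square root of F. Comparisons between lines used all 18 libraries in 1 model of 6 groups. Fold changes of genes at 0 counts in a group were computed against 3 counts per library, a floor that covers counting error only. Genes named are the members, the other genes called in all lines, related genes called in any line, overlapping and nearest tested genes, and the 3 protein-coding genes most like each member. Also named are MAFG, listed cell type markers and, by their values, FREM1 and genes just outside the limits of selection. On simulated counts, 200 genes were changed by a log2 fold change of 2, drawn only from genes above a minimum mean count. There edgeR recovered 176 for A375, 195 for SKMEL28 and 196 for WM164 cells, with 10, 11 and 2 false calls. DESeq2 recovered 185 in A375 cells with 17 false calls. Changes of genes with few counts and smaller fold changes were not simulated, so recovery of members near those limits is not known. Alternatives were DESeq2 1.42.0, its size factors, other count filters, a replicate block, limma 3.58.1 on log2(TPM + 1) and log2(TPM + 0.1), all 18 libraries in 1 model, only the 6 libraries of a contrast, no limit on fold, and leaving out each library. Of 58825 gene identifiers, 58472 matched GENCODE release 44.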

Additional observations from a re-analysis of the deposited data

Results flagged for a closer look

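The 8 related genes called in any line were tested for a difference of the response between lines. The test was edgeR's interaction of line and transgene, adjusted over all genes. Each had been called in only 1 line of these same libraries, so a difference was favoured by how they were picked. The adjusted p-values given below for these genes are therefore descriptions and no further support. Responses of 7 differed between lines, while MACROD2 differed for no pair (adjusted p = 0.0802 to 0.426, edgeR). The share of all genes that differed is not given here. For MUC5AC the response in WM164 minus SKMEL28 was -6.77 on the log2 scale (adjusted p = 0.0110) and in SKMEL28 minus A375 5.10 (adjusted p = 0.00718). These fitted values are no bounds, since MUC5AC had 7, 0 and 0 counts with GFP and 0, 0 and 1 with MAFG in WM164 cells. For SYNM the response of WM164 exceeded that of SKMEL28 by 1.39 (adjusted p = 1.59e-08) and that of A375 by 1.26 (adjusted p = 6.67e-08). For NEFL the response in SKMEL28 minus A375 was -1.53 (adjusted p = 1.86e-04).

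For GRIP2 the response in WM164 minus SKMEL28 was 7.71 (adjusted p = 0.00556) and in SKMEL28 minus A375 -7.12 (adjusted p = 0.0333), fitted values that depend on 0 counts in the 3 SKMEL28 MAFG libraries. RORA gave 2.21 for WM164 minus SKMEL28 (adjusted p = 3.66e-05) and -1.68 for SKMEL28 minus A375 (adjusted p = 0.00100). RORB gave -2.23 (adjusted p = 2.42e-04) and 1.32 (adjusted p = 0.0328) for the same pairs. DMRTA1 gave 1.33 for WM164 minus SKMEL28 (adjusted p = 0.00388).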

How the results depend on the processing

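No member's log2 fold change changed sign in any line under any alternative run. The count of genes called higher was 786 for WM164, 273 for SKMEL28, 102 for A375 cells and 9 for all lines. Requiring 10 or more counts in every library, which tests fewer genes, these were 493, 172, 62 and 5. On log2(TPM + 1) they were 305, 41, 22 and 1, and on log2(TPM + 0.1) 164 in SKMEL28, 35 in A375 cells and 3 in all lines. With no limit on fold they were 2580 in WM164, 2265 in SKMEL28 and 35 in all lines. In A375 cells DESeq2 called 171, no count filter 192 and all 18 libraries in 1 model 286. Leaving out a library gave 54 to 137 in A375 cells and 4 to 9 in all lines. The cause was not tested.

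Replicate numbers did not pair the libraries: deviations of 9 same-numbered pairs correlated at -0.04 to 0.03. With a replicate block the count was 62 in A375 cells and 4 in all lines, and 1 member, MUC5B, was called in all lines. Members called in all lines numbered 5 with DESeq2 and 5 with no count filter (without NES), 2 under the filter of 10 counts, 0 on log2(TPM + 1) and 1 on log2(TPM + 0.1).

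Related genes called went from 8 to 2 on log2(TPM + 1) and to 25 with no limit on fold. Calls between lines in GFP cells went from 16 to 5 under the filter of 10 counts and to 3 on log2(TPM + 1). In MAFG cells, whose libraries chose the genes, the differences past the same limits, a description, went from 15 to 4 under that filter. Neighbouring genes called went from 2 to 0 under that filter and on log2(TPM + 1), to 1 on log2(TPM + 0.1), to 10 with no limit on fold, and were 1 to 2 when a library was left out. Differences of a response between lines larger than 2 SE, a description with no test, went from 8 to 2 under the filter of 10 counts. On log2(TPM + 1) and log2(TPM + 0.1), the MUC5B response in WM164 minus SKMEL28 reversed to 0.75 and 0.50, in SKMEL28 minus A375 to -0.62 and -0.66, and SYNM in SKMEL28 cells to -0.056 and -0.059. On log2(TPM + 1), WM164 minus A375 reversed to 0.13 for MUC5B and 0.84 for ART3. AL590666.2 in A375 cells ranged from -0.20 to 0.13 when a library was left out, and was above 0 at 0.05 without GFP replicate 3 and at 0.13 without MAFG replicate 3. With GFP, NES had 4 to 7 and DMRT2 1 to 8 counts in SKMEL28 libraries, and ART3 had 0 in A375 libraries.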
